A study of Mus musculus with 8 samples.

Results

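The subject of this report is a set of 36 genes for protein folding, translocation, quality control and stress sensing in the endoplasmic reticulum (ER), chosen by function and all found among the 24411 genes of the deposited table. RNA had been sequenced from hepatocytes isolated from mice and kept in culture for 2 days after plating. There were 4 wild-type libraries (WT) and 4 in which Taf2 had been conditionally knocked out in hepatocytes only (TAF2 KO). Taf2 encodes a subunit of TFIID, the general factor that binds core promoters for RNA polymerase II. No treatment, age or sex is given in the labels, and the sources used here do not name the driver that restricts the deletion to hepatocytes. The labels number the replicates but do not say whether they are separate mice or cultures, so p-values measure the spread between these libraries, which may be technical.

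Secreted and membrane proteins enter the ER through the Sec61 channel and fold there with the help of chaperones. Proteins that fail to fold are sent back to the cytosol for degradation (ER-associated degradation, ERAD). When unfolded proteins build up, the sensors IRE1 (gene Ern1), PERK (Eif2ak3) and ATF6 start the unfolded protein response, which raises chaperone and ERAD genes through the transcription factors XBP1, ATF6 and ATF4. Hepatocytes, which secrete most plasma proteins, carry a large ER, and many chaperone promoters hold a short ER stress response element (ERSE), a CCAAT box that binds NF-Y, spaced from a CCACG that ATF6 and XBP1 recognise.

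Most chaperone and disulfide isomerase members were lower in the knockout, while the sensor genes Ern1 and Eif2ak3 were higher. Of 35 members with enough counts to be tested, 20 were lower and 9 were higher, and 6 were not called in either direction (edgeR adjusted p under 0.05). Over all 12122 genes tested, 31.2% were called lower, 30.2% higher and 61.4% in either direction, so a call in either direction was common everywhere, and the members leaned to lower calls more than all genes did. The changes were small. Members ran from -0.44 to 0.70 on the log2 scale with a median of -0.16, beside a median of -0.0035 over all genes. Only Dnajb9 was called and beyond 1.5-fold, 2.86% of the members tested, against 18.4% of all genes.

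**Figure D1:**
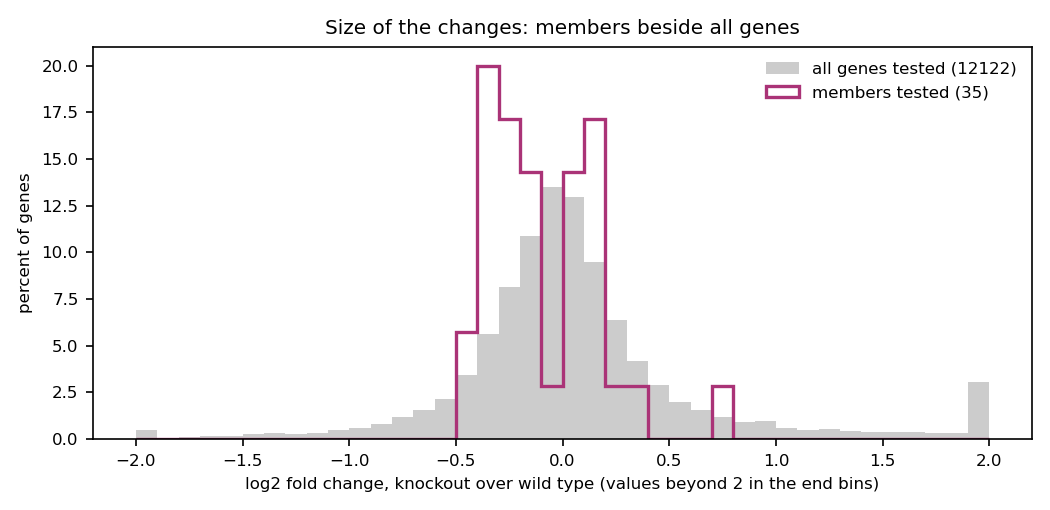
Log2 fold change (x axis, knockout over wild type, in bins of equal width) against the percent of genes in each bin, for all 12122 genes tested (grey) and the 35 members tested (outline). The members lie between -0.44 and 0.70, mostly left of 0, while all genes spread further to both sides.

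The ERSE is shown first because the members that hold it are mostly chaperone genes that were lower. RefSeq promoters (build GRCm38.p6, the mm10 assembly, 250 bases before to 50 after each start site) were at hand for 30 members. In 26 of the 32 promoter sequences of these members, a stretch after the start site matched a GENCODE transcript of the gene. Positions are therefore given from the RefSeq start site only. The exact ERSE, which is CCAAT, then 9 bases of any kind, then CCACG, on either strand, stood in the promoters of 9 of these 30 members and of 0.137% of all 27025 genes in the promoter table. The members were Hspa5, Hsp90b1, Dnajc3, Creld2, Calr, Canx, Pdia6, Syvn1 and Derl3. Many chaperone promoters are known to hold this element and the set was chosen by function. The share above that of all genes is therefore no finding of these data. The related ERSE-II, which is ATTGG, then 1 base, then CCACG, stood in those of Dnajb11 and Herpud1 and of 0.0444% of all genes. ATTGG is CCAAT read on the other strand, so each ERSE-II also counts as a CCAAT. The 6 windows below show the element in members that the results turn on, with both conserved parts of each element in capitals, read 5′ to 3′ on the strand that carries it in this order.
Hspa5: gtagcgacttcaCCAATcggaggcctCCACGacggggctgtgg
Hsp90b1: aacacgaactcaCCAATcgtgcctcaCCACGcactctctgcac
Calr: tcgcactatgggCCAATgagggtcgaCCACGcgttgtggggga
Dnajc3: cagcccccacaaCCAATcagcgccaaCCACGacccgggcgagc
Syvn1: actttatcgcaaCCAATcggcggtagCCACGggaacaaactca
Herpud1: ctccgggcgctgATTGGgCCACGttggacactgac

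The windows lie at chr2:34772013-34772055 on the plus strand for Hspa5, chr10:86705521-86705563 plus for Hsp90b1, chr8:84847063-84847105 plus for Calr, chr14:118937815-118937857 plus for Dnajc3, chr19:6046520-6046562 plus for Syvn1 and chr8:94386365-94386399 plus for Herpud1. The element's upstream end was 65 bases before the RefSeq start site in Hspa5, 107 in Hsp90b1, 162 in Calr, 105 in Dnajc3, 44 in Syvn1 and 52 in Herpud1. It ran against the direction of the gene in Hsp90b1 and Calr and along it in the others shown. Hsp90b1 held a further exact ERSE starting 212 bases upstream.

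Of the 11 members with an ERSE or ERSE-II, 9 were lower, 0 were higher, Syvn1 was not called and Derl3 was too scarce to be tested. The 19 members with a promoter but neither exact element were split, with 8 lower, 8 higher and 3 not called. Inexact forms were not searched, and some of these members, Dnajb9 and Sdf2l1 among them, held both parts without forming an exact element. Of the chaperone and isomerase members in this group, Sdf2l1, Pdia3 and Pdia4 were lower, Dnajb9 was higher and Dnajc10 was not called. The 6 members with no promoter in the table held 3 lower, 1 higher and 2 not called. The background for these counts is again 31.2% lower and 30.2% higher. Alone, both parts were common, CCAAT in 23 of 30 members and 41.1% of all genes, and CCACG in 24 of 30 and 35.5%. The UPR element TGACGTGG and the cyclic AMP element TGACGTCA were in 0 of the 30 members' windows and in 0.714% and 2.03% of all genes. These matches are descriptions of letters in a window, and whether a factor bound them was not measured.

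**Figure D2:**
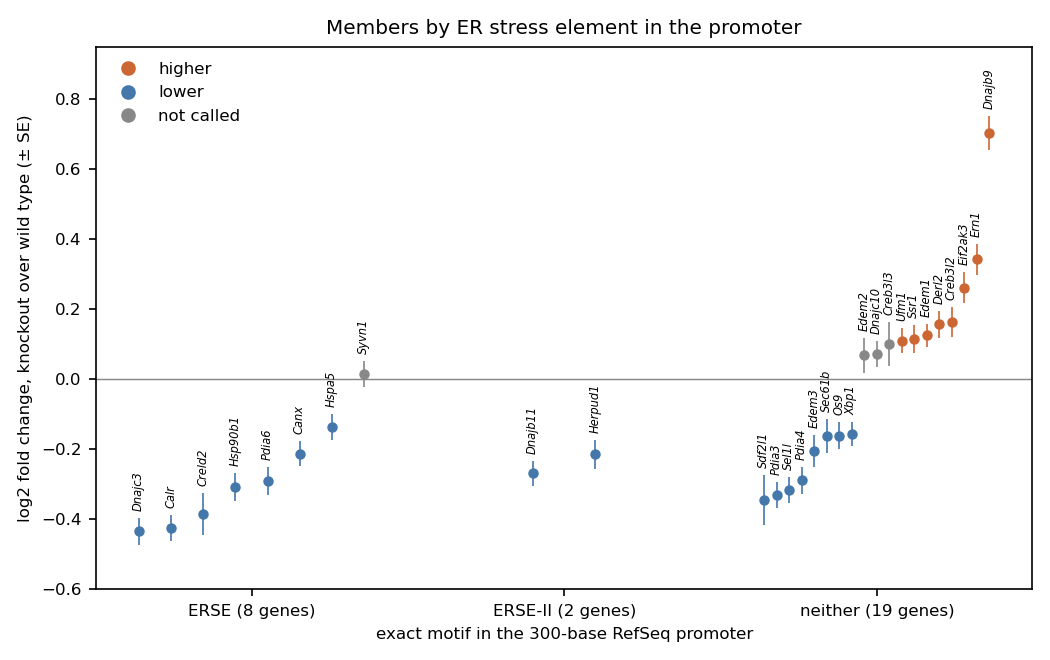
Log2 fold change of each tested member (y axis, points with SE), grouped by whether its 300-base promoter holds an exact ERSE (8 genes), an ERSE-II (2 genes) or neither (19 genes). Points are coloured by call. With an element 9 of 10 tested members were lower, and the higher members shown are all in the group with neither.

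The label of the knockout libraries was checked on Taf2 itself. Its level was 42.5, 46.4, 45.2 and 42.2 CPM (counts normalised to library size, here scaled by TMM) in wild-type replicates 1 to 4 and 13.9, 15.7, 13.4 and 12.7 CPM in the knockout replicates. The genotypes did not overlap, and the knockout mean was 31.7% of the wild-type mean (log2 fold change -1.66, SE 0.061; edgeR adjusted p = 9.03e-15). An exact two-sided permutation test gave p = 0.029, the smallest possible with 4 against 4. Library totals ran from 18947059 to 23933589 counts. Markers of other liver cells moved with the genotype. All 17 tested macrophage markers of 18 listed were higher, their sum going from 156–181 CPM in the wild-type libraries to 344–376 in the knockout, and Cd68 was the most abundant. Of 17 tested endothelial markers 16 were higher (sum 77.4–87.6 to 202–213 CPM, led by Stab1). Of 15 tested stellate and fibroblast markers 12 were higher and 2 lower, with a median log2 fold change of 2.18. Their sum (226.5–245 to 217–232 CPM) was led by Tagln, which was 1 of the 2 that fell (139 ± 9.57 to 27.6 ± 1.01 CPM). Of 6 tested cholangiocyte markers 2 were higher and 3 lower (157–171 to 191–221 CPM, led by Spp1). Hepatocyte markers, led by Alb, had by far the highest sums of these lists, with 9 of 13 higher and 2 lower (51870–56030 to 69660–75840 CPM). Of the B and plasma cell list, Ms4a1, Tnfrsf17 and Pou2af1 had no count, and nearly all of its 244–273 CPM was Sdc1. Neutrophil markers, of which none was tested, went from 0.052–0.33 to 0.35–0.62 CPM as a sum, and 2 tested erythroid markers, led by Alas2, were lower. The part of these shifts in the results on ER genes was not tested, and in bulk RNA fewer cells of a type and less RNA per cell cannot be told apart.

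**Figure D3:**
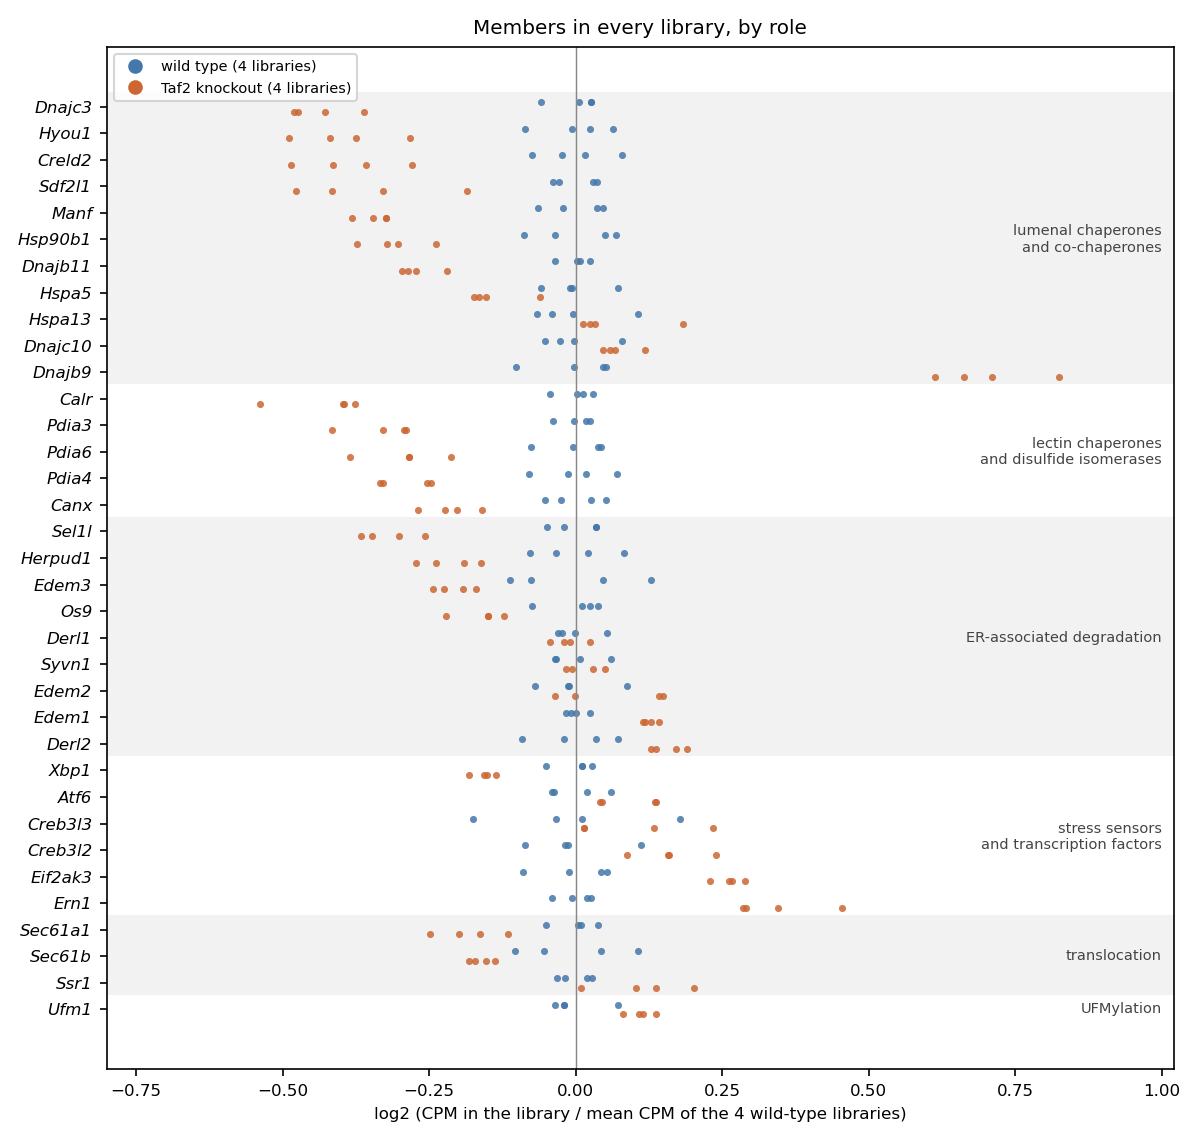
Log2 of each library's CPM over the mean of the 4 wild-type libraries (x axis) for the 35 tested members (y axis), ordered within each role by fold change. Blue points are wild-type and orange points knockout libraries. Orange points lie left of all blue ones for 20 members and right of all of them for 6.

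The CPM values of the genotypes did not overlap for all 20 lower members and for 6 of the 9 higher ones, beside 27.8% of all genes lower and 26.9% higher without overlap. Together the 36 members made up 0.557% to 0.576% of each wild-type library and 0.485% to 0.506% of each knockout library. No member had a value off a whole number by more than 0.005 in any library.

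Among the lumenal chaperones and co-chaperones 8 of 11 were lower and 1 higher, beside 31.2% lower and 30.2% higher over all genes. Hspa5 encodes BiP, the HSP70 of the ER and the chaperone that holds the stress sensors inactive. It was the most abundant member per transcript length in both genotypes, at 413 ± 15.6 CPM per kilobase in the wild type (SD, n = 4). Its level was 1073, 1135, 1075 and 1036 CPM in wild-type replicates 1 to 4 and 971, 1035, 963 and 958 CPM in the knockout. The highest knockout library (replicate 2) almost met the lowest wild-type one, and the fall was the smallest in this group (log2 fold change -0.14, SE 0.037; edgeR adjusted p = 0.00338).

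Dnajc3, an HSP40 co-chaperone of BiP that is also known as an inhibitor of PERK, had the largest fall of all tested members. It stood at 174, 184, 184 and 181.5 CPM in the wild type and at 134.5, 141, 130 and 130.3 CPM in the knockout (log2 fold change -0.44, SE 0.038; edgeR adjusted p = 4.33e-09). Every knockout library was below every wild-type library by a wide margin. Hyou1, a large HSP70 relative that exchanges nucleotide on BiP, fell from 82.8 ± 3.60 to 63.2 ± 3.81 CPM. Hsp90b1, which encodes the ER HSP90 (GRP94), fell from 371 ± 18.9 to 299 ± 11.5 CPM. Dnajb11, a lumenal HSP40 that hands clients to BiP, fell from 62.7 ± 1.07 to 52.05 ± 1.23 CPM. Sdf2l1, a partner of Dnajb11, had a log2 fold change of -0.35 (SE 0.072), the widest error among the tested members, at only 14.9 CPM in the wild type. The secreted ER stress proteins Manf and Creld2 fell by 0.34 (SE 0.037) and 0.39 (SE 0.061) on the log2 scale. Manf shares exon sequence on the same strand with Rbm15b, whose counts came to 35.2% of those of Manf.

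Dnajb9, the HSP40 co-chaperone ERdj4 that brings BiP to IRE1, went the other way. It was at 38.4, 37.1, 34.7 and 38.6 CPM in wild-type replicates 1 to 4 and at 58.9, 56.9, 65.8 and 60.9 CPM in the knockout replicates. This is a 1.63-fold rise with no overlap (log2 fold change 0.70, SE 0.049; edgeR adjusted p = 1.44e-10). Within a library the log2 ratio of Dnajb9 to Hspa5 counts rose from -4.86 ± 0.10 to -4.02 ± 0.13 (difference 0.84; exact two-sided permutation p = 0.029, the smallest possible, and 0.044 adjusted over 6 ratios). That ratio does not depend on scaling between libraries. Its p adds nothing to the results of both genes, which already separated the genotypes in opposite directions. The reductase co-chaperone Dnajc10 and the HSP70 relative Hspa13 were not called. Dnajc10 was at 118 ± 4.72 and 124 ± 2.75 CPM (edgeR adjusted p = 0.0979) and passed in 3 alternatives: upper-quartile scaling (0.0271), a filter at a mean of 5 CPM (0.0417) and without wild-type replicate 2 (0.03). Hspa13 was at 29.0 ± 1.57 and 30.3 ± 1.73 CPM.

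The members that are lectin chaperones or disulfide isomerases all fell, 5 of 5, beside 31.2% lower and 30.2% higher over all genes. Calr, which encodes calreticulin, the soluble chaperone for newly glycosylated proteins, was at 654, 649, 662 and 629 CPM in the wild type and at 493, 499, 446 and 492 CPM in the knockout. It was the most abundant and the most reduced of this group (log2 fold change -0.43, SE 0.038; edgeR adjusted p = 7.34e-09), and knockout replicate 3 was the lowest library. Its membrane-bound counterpart calnexin (Canx) fell less, from 490 ± 16.1 to 423 ± 13.4 CPM. Pdia3, the disulfide isomerase that works with both lectins, fell from 361 ± 7.08 to 287 ± 11.6 CPM. Pdia4 and Pdia6, isomerases that associate with BiP, both had a log2 fold change of -0.29 (SE 0.040 for Pdia4 and 0.041 for Pdia6). The log2 ratio of Hsp90b1 to Calr rose by 0.12 within libraries (exact permutation p = 0.029, 0.044 adjusted over the 6 ratios), so these 2 abundant chaperone genes did not fall in equal measure.

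**Figure D4:**
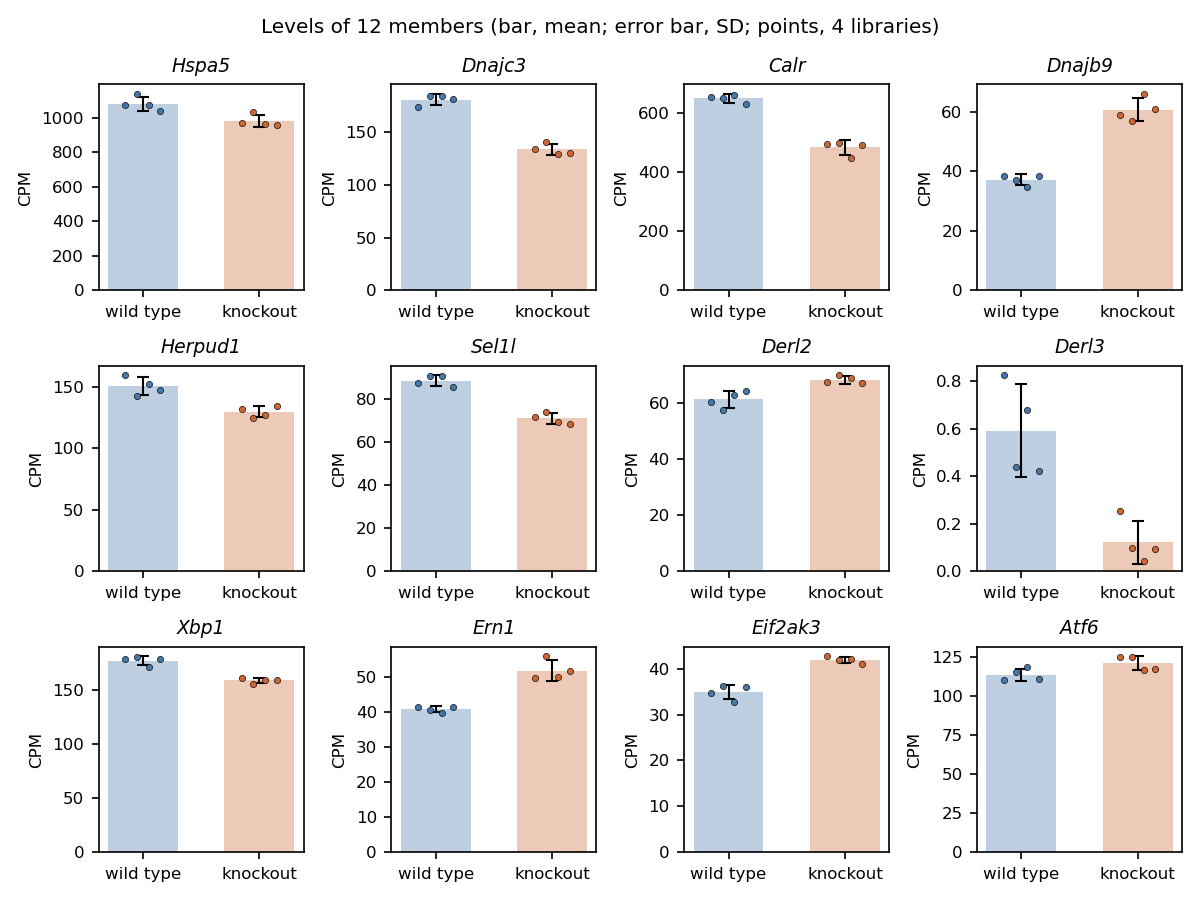
CPM (y axis from 0) of 12 members in wild-type and knockout libraries. Bars are means, error bars SD, and points the 4 libraries of each genotype. Hspa5 differs little against its level, whereas Dnajb9 goes from 37.2 to 60.6 CPM and Derl3 is below 1 CPM in every library.

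The ERAD genes were mixed, with 4 of 9 tested members lower, 2 higher and 3 not called, beside 31.2% lower and 30.2% higher over all genes, so nothing is read from these counts. Sel1l, the membrane scaffold of the HRD1 ubiquitin ligase, was at 87.1, 90.4, 90.4 and 85.3 CPM in the wild type and at 71.7, 73.9, 69.4 and 68.5 CPM in the knockout (log2 fold change -0.32, SE 0.037; edgeR adjusted p = 2.66e-07). Both genotypes were well apart. Herpud1, a stress-induced organiser of the complex, was at 159.5, 143, 153 and 147 CPM in the wild type and at 132, 125, 128 and 135 CPM in the knockout (log2 fold change -0.21, SE 0.041). It was the most abundant ERAD member by CPM in the wild type only, and per transcript length in both genotypes. The lectin Os9, which delivers glycoproteins to the complex, fell from 146 ± 5.09 to 130.5 ± 3.83 CPM. Syvn1, the ligase HRD1 itself, was level at 57.6 ± 1.80 and 58.2 ± 1.25 CPM (log2 fold change 0.014, SE 0.037; edgeR adjusted p = 0.762). Its exons overlap those of Mrpl49 on the other strand, whose counts came to 42.9% of those of Syvn1, and the sources used here do not say whether counting used strand.

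The Edem mannosidase-like proteins mark glycoproteins for disposal. Edem3 fell from 71.8 ± 5.55 to 62.1 ± 1.39 CPM, Edem1 rose from 121 ± 1.52 to 132.5 ± 1.15 CPM (log2 fold change 0.13, SE 0.033; edgeR adjusted p = 0.00274), and Edem2 was at 41.5 ± 1.89 and 43.5 ± 2.87 CPM. The log2 ratio of Edem1 to Edem2 differed by 0.061 between genotypes, within its spread (exact permutation p = 0.31). The derlins are membrane proteins of the exit channel. Derl2 had the largest rise among the 9 tested ERAD members, from 60.4, 57.5, 62.7 and 64.4 CPM to 67.3, 69.8, 68.95 and 66.9 CPM (log2 fold change 0.16, SE 0.039; edgeR adjusted p = 0.00161). Genotypes did not overlap, although wild-type replicate 4 came near the knockout libraries. Its exons overlap the opposite-strand gene Mis12, whose counts came to 31.1% of those of Derl2. Derl1 was at 98.96 ± 2.66 and 98.1 ± 1.96 CPM, and its ratio to Derl2 fell by 0.17 on the log2 scale (exact permutation p = 0.029, 0.044 adjusted over the 6 ratios).

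Derl3, a derlin known for strong induction by ER stress and for secretory tissues, was the scarcest member and did not pass the filter on low counts. It had 19, 9, 13 and 9 counts in wild-type replicates 1 to 4 and 6, 2, 1 and 2 in the knockout replicates. Each knockout library was below each wild-type library. With no low-count filter its log2 fold change was -2.20 (SE 0.48; edgeR adjusted p = 0.000119 over 16533 genes), a value that rests on 50 against 11 counts.

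In the stress sensor and transcription factor group 4 of 6 genes were higher and 1 lower, beside 30.2% higher and 31.2% lower over all genes, and the call of 1 of the 4, Atf6, was not stable. Ern1, which encodes IRE1, the kinase and endonuclease that splices the Xbp1 transcript, was at 41.5, 40.6, 39.7 and 41.4 CPM in the wild type and at 49.7, 55.9, 49.9 and 51.8 CPM in the knockout. All knockout libraries were above all wild-type ones, with replicate 2 highest (log2 fold change 0.34, SE 0.044; edgeR adjusted p = 1.26e-06). Eif2ak3, which encodes PERK, the kinase that slows translation through eIF2α, rose from 34.9 ± 1.58 to 41.9 ± 0.713 CPM with no overlap (log2 fold change 0.26, SE 0.045). Atf6, the membrane-bound factor released by cleavage in the Golgi, was at 114 ± 3.83 and 121 ± 4.51 CPM with overlapping libraries (log2 fold change 0.091, SE 0.038; edgeR adjusted p = 0.0458). That call ended in 7 of 17 alternatives, including those that left out wild-type replicate 1 (0.134), 2 (0.0568) or 4 (0.127), or knockout replicate 1 (0.11) or 2 (0.0931).

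Xbp1, whose protein drives chaperone, ERAD and secretory genes, was the only gene of this group to fall. It was at 178, 180, 171 and 178 CPM in wild-type replicates 1 to 4 and at 161, 156, 159 and 158.5 CPM in the knockout replicates, without overlap (log2 fold change -0.16, SE 0.034; edgeR adjusted p = 0.000526). It was also the most abundant of the 6 by CPM and per transcript length. Counts per gene do not separate the spliced from the unspliced form, so the activity of IRE1 was not measured. Creb3l2 and Creb3l3 encode relatives of ATF6 that are likewise cut from the membrane, the second being liver-enriched and known for acute-phase and lipid genes. Creb3l2 rose from 80.1 ± 4.64 to 89.6 ± 3.87 CPM with overlapping libraries (log2 fold change 0.16, SE 0.043; edgeR adjusted p = 0.00279). Creb3l3 was at 41.3 ± 4.18 and 44.3 ± 3.30 CPM and was not called (edgeR adjusted p = 0.169), but passed without wild-type replicate 4 (0.0263). The log2 ratio of Creb3l3 to Creb3l2 differed by -0.058 (exact permutation p = 0.71).

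The translocation genes split. Sec61a1, the pore subunit of the channel, was at 216, 224, 229 and 225 CPM in the wild type and at 206, 199.5, 195 and 188 CPM in the knockout (log2 fold change -0.18, SE 0.037; edgeR adjusted p = 0.000277). Its libraries did not overlap between genotypes. Sec61b, a small subunit of the same channel, fell from 42.7 ± 2.80 to 38.2 ± 0.513 CPM. Ssr1, a subunit of the translocon-associated TRAP complex, was at 147, 152, 145.5 and 151 CPM in the wild type and at 163.5, 160, 171 and 150 CPM in the knockout. Knockout replicate 4 lay within the wild-type range (log2 fold change 0.12, SE 0.040; edgeR adjusted p = 0.0182), and the call ended without wild-type replicate 3 (0.0571) or knockout replicate 3 (0.0665). Ufm1, the ubiquitin-like modifier that is attached to ribosomes at the translocon, was at 66.5, 67.2, 67.2 and 71.6 CPM in the wild type and at 73.5, 72.1, 73.8 and 74.9 CPM in the knockout (log2 fold change 0.11, SE 0.035; edgeR adjusted p = 0.0106). Values of the genotypes did not overlap, but wild-type replicate 4 came close.

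Levels between genes are compared per kilobase of the longest matched RefSeq transcript. By that measure Hspa5, Calr, Hsp90b1, Pdia3 and Canx were the 5 most abundant members in this order in the wild type, at 413, 297, 131, 130.4 and 114.5 CPM per kilobase, where Hsp90b1 and Pdia3 did not differ beyond their SDs (6.67 and 2.56). The same 5 led in the knockout in the same order, at 376, 221, 106, 104 and 98.7. Dnajb9 moved from rank 27 to rank 15 of the 36 and Hyou1 from 19 to 27. Ern1 (5.87 CPM per kilobase in the wild type), Hspa13 (6.84) and Eif2ak3 (7.73) were the lowest after Derl3.

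Other genes of the same pathways, from lists without the members, gave the following counts, to be read against the background of 31.2% lower and 30.2% higher. Of 24 further chaperone, glycan-processing and folding genes 11 were lower and 4 higher (median log2 fold change -0.16). Mogs and Ganab, the glucosidases that trim new glycans, fell by 0.49 and 0.39 on the log2 scale. The 2 rises with the smallest p, Serpinh1 (0.869 ± 0.191 to 4.94 ± 0.607 CPM) and Fkbp10 (0.123 ± 0.138 to 0.702 ± 0.0745 CPM), are collagen-folding genes at low level. Of 15 tested stellate and fibroblast markers 12 were higher and 2 lower (median log2 fold change 2.18). The mean of their summed CPM went from 237 to 224, a sum in which the abundant Tagln fell from 139 to 27.6 CPM. A link between the rises of Serpinh1 and Fkbp10 and the markers was not tested. Of 25 further ERAD genes 11 were lower and 3 higher (median -0.064). The ligase gene Rnf5 had a log2 fold change of -0.42, while Selk and the ubiquitin-conjugating enzyme gene Ube2j1 rose by 0.38 and 0.11, the latter not without wild-type replicate 1 (edgeR adjusted p = 0.063).

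Further disulfide isomerases and oxidases did not share the uniform direction of the Pdia members, with 6 of 17 lower and 7 higher (median 0.033). Pdia5 fell from 46.7 ± 2.97 to 28.4 ± 1.34 CPM and Erp29 from 126 ± 3.42 to 105 ± 2.06 CPM. Ero1l, the oxidase that recharges the isomerases, rose from 78.1 ± 3.04 to 222 ± 23.9 CPM (log2 fold change 1.51, SE 0.058; edgeR adjusted p = 1.66e-14), and the peroxiredoxin gene Prdx4 rose by 0.38. In the list of PERK branch and ATF4 targets 9 of 17 were higher and 5 lower (median 0.23). Vldlr rose from 39.8 ± 3.25 to 121 ± 10.5 CPM and Ddit4 from 24.9 ± 1.77 to 89.96 ± 11.2 CPM. Asns, the asparagine synthetase gene, fell from 100.3 ± 2.80 to 51.5 ± 1.66 CPM, and the cystine transporter gene Slc7a11 from 82.9 ± 5.20 to 54.5 ± 5.91 CPM. A further pair of genes of this list was added after their values were seen because it defines the branch. Atf4 was at 248 ± 2.98 and 255 ± 7.28 CPM (edgeR adjusted p = 0.332), and Ddit3, which encodes CHOP, rose from 6.44 ± 0.943 to 11.7 ± 0.694 CPM.

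Of 30 further genes for translocation, signal peptide removal and N-glycan transfer 9 were higher and 4 lower (median 0.014). By smallest p, the first 2 of those that rose were Srp68 (0.27) and Dad1 (0.20), and the first 2 of those that fell Spcs3 (-0.30) and Srprb (-0.25). Of 7 further UFMylation genes 3 were higher and 1 lower (median 0.14). Ddrgk1 and Ufsp2 rose by 0.20 and 0.14, and Ufc1 had a log2 fold change of -0.13 (edgeR adjusted p = 0.0227), a call that ended in 6 of 17 alternatives, including without wild-type replicate 4 (0.113) and without knockout replicate 1 (0.0718) or 2 (0.0968). Of 19 other stress regulators 7 were higher and 7 lower (median 0.026). Eif2ak2 (PKR, also an interferon-stimulated gene) and Mapk8 (JNK) rose by 0.77 and 0.54, and Creb3 and Dab2ip fell by 0.54 and 0.46. Of 29 genes for ER-to-Golgi transport 9 were higher and 9 lower (median 0.00058). The retrieval receptor genes Kdelr3 (4.01 ± 0.319 to 10.05 ± 1.55 CPM) and Kdelr2 (88.1 ± 2.32 to 115 ± 4.87 CPM) rose, and Preb and the cargo receptor gene Lman1 fell by 0.42 and 0.37.

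**Figure D5:**
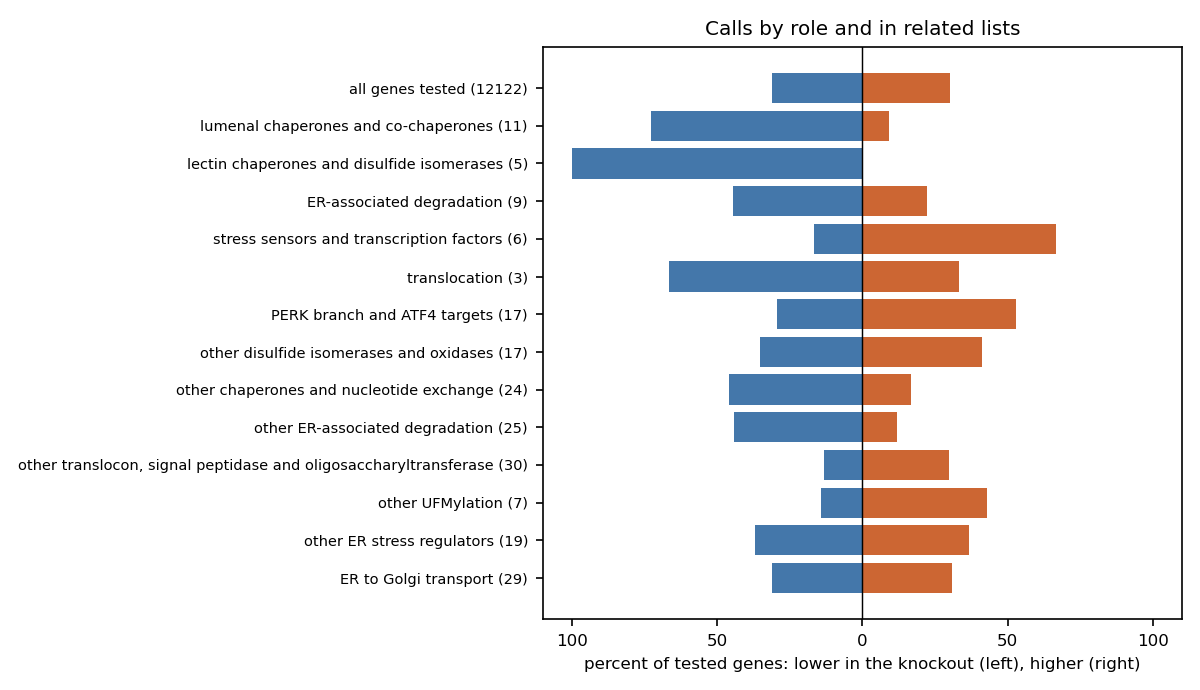
Percent of tested genes (x axis) called lower (left, blue) and higher (right, orange) in the roles of the member set with at least 3 tested genes and in 8 related lists, with all genes tested on top. Numbers tested are in brackets. Both chaperone rows of the member set and the further chaperone and ERAD rows lean left, the sensor row leans right, the further isomerase row (7 higher and 6 lower of 17) leans to neither side, and ER-to-Golgi transport resembles the row of all genes.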

How the data were processed

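Libraries of total RNA were made, per the labels' protocols, with an Illumina TruSeq kit and sequenced in 2 rounds. The authors deposited expected counts per gene, which per the submitters' processing notes RSEM made on mm10. The sources used here do not give its version, the aligner, trimming or strand setting. A further 8 columns of the table match no sample and were not used. Expected counts (2.85% not whole) were rounded, filtered with filterByExpr (minimum count 10, minimum total 15), scaled by TMM and compared by edgeR's quasi-likelihood test across 12122 genes, genotype only, with Benjamini-Hochberg adjustment at 0.05. SE is the absolute log2 fold change over the square root of F. The tools were edgeR 4.0.16, DESeq2 1.42.0 and limma 3.58.1 in R 4.3.3, and the fit was tested on simulated data. Libraries within a genotype differed beyond sampling noise (chi-square per degree of freedom 3.16 to 8.60) and each counts as 1 replicate.

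The members and lists were chosen with earlier results of these data known. Values in every library are given for Taf2 and, in each role, the called member with the largest rise, that with the largest fall and the most abundant one; for related lists up to 2 called genes with the smallest p in each direction; for marker lists the most abundant gene. Of the genes so taken, 1 is not reported here. Derl3, the outlying libraries, Atf4, Ddit3, P4hb and the genes of the last section were named after their values were seen. Genes and transcript lengths were matched to GENCODE M21 and promoters to RefSeq. A planned look at protein C-termini was not run. Alternatives tried were upper-quartile and RLE scaling, DESeq2, limma-voom, other low-count filters, unrounded counts, thinning to the smallest library, a replicate block and leaving out each library.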

Additional observations from a re-analysis of the deposited data

Results flagged for a closer look

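In 3 of 74 groups of 4 libraries (36 members and Taf2 in each genotype) 1 library stood apart from the other 3 by more than Dixon's critical value for 4 samples, about as many as chance flags at 1 in 20. Knockout replicate 2 was the highest for Hspa13, at 32.9 CPM with the next library at 29.7. Knockout replicate 3 was the lowest for Calr, at 446 CPM with the next at 492. Wild-type replicate 4 was the highest for Ufm1, at 71.6 CPM with the next at 67.2. The causes were not tested.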

How the results depend on the processing

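Of 595 values of the 35 tested members under 17 alternatives, 578 kept their direction and their side of the threshold, and 27 of the 29 called members did so in every alternative; the exceptions were Atf6 and Ssr1. Members called ranged from 8 to 10 higher and 20 to 21 lower, with DESeq2 at 9 and 20. The median log2 fold change of members was -0.137 with upper-quartile scaling and -0.142 with genes at a mean of at least 5 CPM, and ran from -0.164 to -0.150 when a replicate was left out. The scalings moved the median of all genes by under 0.03. Derl1, not called anywhere, changed sign to 0.012 with upper-quartile scaling, 0.0069 with genes at a mean of at least 5 CPM and to 0.0050 and 0.0054 without wild-type replicate 4 or knockout replicate 4, in a range from -0.024 to 0.0054 when a replicate was left out. The log2 ratio of Creb3l3 to Creb3l2 turned to 0.031 without wild-type replicate 4; left-out replicates gave it a range from -0.11 to 0.031. Atf6 also missed with no low-count filter (edgeR adjusted p = 0.0854) and with thinned libraries (0.056). The labels do not say whether replicate numbers pair the samples. Same-numbered libraries had correlations of deviations from -0.0686 to 0.0114, which shows no strong pairing but cannot exclude a weak one. A replicate block gave 9 members higher and 20 lower and 3666 genes higher and 3771 lower. Depth limits Derl3 (1 to 19 counts per library), and with 4 against 4 libraries no permutation p can go below 0.029.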

Other observations

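Outside the member set, 15 tested genes held an exact ERSE or ERSE-II in the same promoter window. Of the 9 with an ERSE, 6 were lower and 0 higher, and of the 6 with an ERSE-II, 2 were lower and 1 higher, beside 31.2% lower and 30.2% higher over all genes. Nucb1, a calcium-binding protein of the Golgi, fell from 96.9 ± 3.02 to 82.4 ± 2.58 CPM (log2 fold change -0.23, SE 0.037; edgeR adjusted p = 1.37e-05). Hnrnpa3, which encodes an RNA-binding protein, fell from 222 ± 5.71 to 199 ± 9.96 CPM. Acnat2, a peroxisomal acyltransferase gene of liver, fell from 42.4 ± 3.65 to 9.48 ± 2.12 CPM and Lgalsl from 18.7 ± 1.13 to 6.05 ± 0.510 CPM, both further than any tested member. Lrif1 was the gene that rose, from 12.9 ± 0.969 to 15.7 ± 1.15 CPM. Alg12, an ER mannosyltransferase gene, and Krtcap2, a subunit gene of the oligosaccharyltransferase, held an element and were not called (edgeR adjusted p = 0.141 and 0.144). Xlr3a and Xlr3b, near-identical copies on which reads cannot be placed with certainty, are 2 of the 6.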
